A study of Mus musculus with 26 samples.

Results

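Interferon-stimulated genes were followed through 8 populations of blood stem and progenitor cells. The set is a list of 41 gene symbols, each read through 1 probe set, the one with the highest mean over the 26 arrays where a gene had several. Of these, 36 had a probe set of their own and are described here, out of 19938 genes measured. Isg15, Ifi204, Gbp2 and Igtp were read only by probe sets that also name a second gene, and Ifi44 was not analysed here, so these 5 are left out. All groups came from bone marrow of mice aged 8 to 15 weeks with the genotype Gata1-EGFP Tg/+, in which green fluorescent protein (GFP) reports activity of Gata1, a factor of erythroid, megakaryocyte and mast cells, and the labels give no group without this transgene and no treatment. Lineage-negative (Lin-), cKit+ Sca1+ cells gave the stem cells (HSC GFP-, CD150+ Flt3- and without reporter signal, 3 arrays) and the lymphoid-primed multipotent progenitors (LMPP, CD150- with high Flt3 and no reporter signal, 4 arrays). Common lymphoid progenitors (CLP, 3 arrays) were Lin- B220- with low Sca1 and cKit, Flt3+ and IL-7Ra+, with no reporter gate in the labels. Lin- cKit+ Sca1- CD41- cells were divided into pre-granulocyte-macrophage progenitors (PreGM, negative for FcgRII/III, CD150 and CD105, 3 arrays without and 3 with reporter signal), granulocyte-macrophage progenitors (GMP, FcgRII/III+, 4 arrays without and 3 with reporter signal) and pre-megakaryocyte-erythroid progenitors (PreMegE, CD150+ and negative for FcgRII/III and CD105, with no reporter gate in the labels, 3 arrays).

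Type I interferons bind a receptor made of Ifnar1 and Ifnar2, whose kinases Jak1 and Tyk2 activate transcription factors in the cytoplasm. A complex that holds Stat2 and Irf9 then binds the interferon-stimulated response element in the promoters of its target genes. The targets include RNA-binding proteins that stop the translation of viral RNA, GTPases that attack vesicles of pathogens, sensors of nucleic acids, enzymes that attach or remove the ubiquitin-like protein Isg15, and the signalling proteins themselves. Blood stem cells are known to express some of these genes without an infection, and interferons are known to drive resting stem cells into division.

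The core of the response element, GAAANNGAAA read on either strand and with overlapping matches counted, was looked for in RefSeq promoters of the mouse build GRCm38.p6, from 250 bases before to 50 bases after each start site. Of the 36 measured genes 26 had a promoter in that table, and 13 of the 26 held at least 1 match, against 3.89% of the 15614 measured genes with a promoter and 3.44% of all 32851 promoters. The 150 bases before the start site are printed for Ifit1, Rsad2 and Gbp7, which were among the genes higher in stem cells, for Gbp3 and Bst2, whose highest means lay elsewhere, and for Oasl2, which was higher in stem cells and holds no match. Capitals mark the matches, and each line runs 5′ to 3′ along the gene's own strand. The windows are chr19:34640739-34640888 on the plus strand, chr12:26456453-26456602 on the minus strand, chr3:142530186-142530335 on the plus strand, chr3:142559894-142560043 on the plus strand, chr8:71537473-71537622 on the minus strand and chr5:114896784-114896933 on the plus strand.
Ifit1: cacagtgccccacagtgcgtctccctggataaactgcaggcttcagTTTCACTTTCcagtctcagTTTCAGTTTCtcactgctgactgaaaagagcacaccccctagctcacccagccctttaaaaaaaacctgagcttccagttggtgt
Rsad2: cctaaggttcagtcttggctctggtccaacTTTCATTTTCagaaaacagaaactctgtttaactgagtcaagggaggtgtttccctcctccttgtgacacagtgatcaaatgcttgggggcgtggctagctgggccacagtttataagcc
Gbp7: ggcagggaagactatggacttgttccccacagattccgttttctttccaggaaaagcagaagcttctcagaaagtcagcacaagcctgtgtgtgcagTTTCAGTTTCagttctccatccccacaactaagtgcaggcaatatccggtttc
Gbp3: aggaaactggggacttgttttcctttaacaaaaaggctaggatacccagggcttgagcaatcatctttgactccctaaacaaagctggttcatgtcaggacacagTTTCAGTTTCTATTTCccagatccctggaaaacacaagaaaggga
Bst2: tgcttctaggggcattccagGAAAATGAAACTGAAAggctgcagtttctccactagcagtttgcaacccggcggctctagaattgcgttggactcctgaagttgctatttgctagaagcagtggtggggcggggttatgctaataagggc
Oasl2: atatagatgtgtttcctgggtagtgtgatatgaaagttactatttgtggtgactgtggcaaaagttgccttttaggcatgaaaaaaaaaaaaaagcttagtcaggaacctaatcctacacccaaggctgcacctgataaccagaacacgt
The Ifit1 window holds 2 separate matches, those of Gbp3 and Bst2 hold 2 that overlap, and Rsad2 and Gbp7 have 1 each. A match describes these letters and was not tested as a binding site.

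Values are log2 signals, and with 3 or 4 arrays in a group their number sets the precision. The median of all values was 6.61. Whether a signal below it exceeds background is not known from these files, so differences that involve a mean below it are given as log2 signal with no fold. Of the 36 genes 24 had a mean above this level in all 8 groups, and Ifit3, Mx1 and Mx2 had a mean below it in all 8. The mean level of the stem cell markers was 8.59 to 8.87 in the HSC GFP- arrays and 7.30 to 7.50 in LMPP, the group with the next highest arrays. That of the CLP markers was 8.80 to 9.88 in CLP and 5.58 to 6.43 in PreGM GFP-, and that of the PreMegE markers was 8.15 to 8.17 in PreMegE. The PreMegE markers did not set that group apart, with 8.16 to 8.24 in PreGM GFP+ and 7.78 to 8.29 in GMP GFP+, against 6.76 to 7.21 over the arrays of the other 5 groups. Markers of late neutrophils, which none of the gates selects, were 9.09 to 10.13 in PreMegE and 9.27 to 11.30 in GMP GFP-. In HSC GFP- they were 5.86 to 6.19. Of these markers, S100a8 and S100a9 were 5.30 and 5.22 higher in PreMegE than in HSC GFP-. Markers of plasmacytoid dendritic cells were 7.99 to 8.62 in CLP and 6.67 to 6.91 in LMPP, and Siglech, their surface lectin, was 9.50 ± 0.94 (SD, n = 3) in CLP and 6.36 ± 0.07 (SD, n = 4) in LMPP. The mean of the Y-linked genes varied inside every group, over all arrays from 5.77 to 7.73. In these sorted pools, fewer cells that express a gene and less RNA per cell cannot be told apart. Nothing in the labels ties replicates to different animals. How far the spread behind the p-values is one between animals is therefore not known.

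Most interferon-stimulated genes had their highest mean in stem cells or LMPP. For 14 of the 36 genes the highest group mean was that of LMPP and for 12 that of HSC GFP-. Together these were 72.2%, where these groups held the highest mean of 21.1% of all genes. The genes of the set were chosen with earlier results of these data known. Shares of all genes beside them, here and below, are therefore not independent support. CLP was highest for 7, and PreGM GFP+ (Oasl1), GMP GFP- (Gbp3) and PreMegE (Irgm1) for 1 each. The lowest mean was that of GMP GFP- for 19 of the 36, against 23.6% of all genes. These counts take the highest or lowest mean of each gene, whether or not the test over the groups called it. Ifit2, Ifit3, Mx1, Oas3 and Adar, all highest in LMPP, were among those not called. By the moderated F test of limma over the 8 groups, 17 of 36 genes differed (15.2% of all genes did): Ifit1, Mx2, Oas2, Oasl2, Rtp4, Usp18, Ifi27, Ifih1, Dhx58, Bst2, Trim30a, Parp12, Samd9l, Ifi203, Ifi209, Gbp3 and Herc6. The widest range of group means was that of Ifi209, at 4.14, followed by Rtp4 at 3.15, Samd9l at 3.11, Ifi203 at 2.71 and Gbp3 at 2.21. At the other end Ifi35, the RNA editing enzyme gene Adar, the OAS-like gene Oasl1 and Oas3 spanned 0.19 to 0.41. With arrays weighted by precision the F test called 27 of the 36, but the estimate of these weights stopped before full convergence. The share of all genes called in that fit is not given here, so the 15.2% is no background for it.

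**Figure D1:**
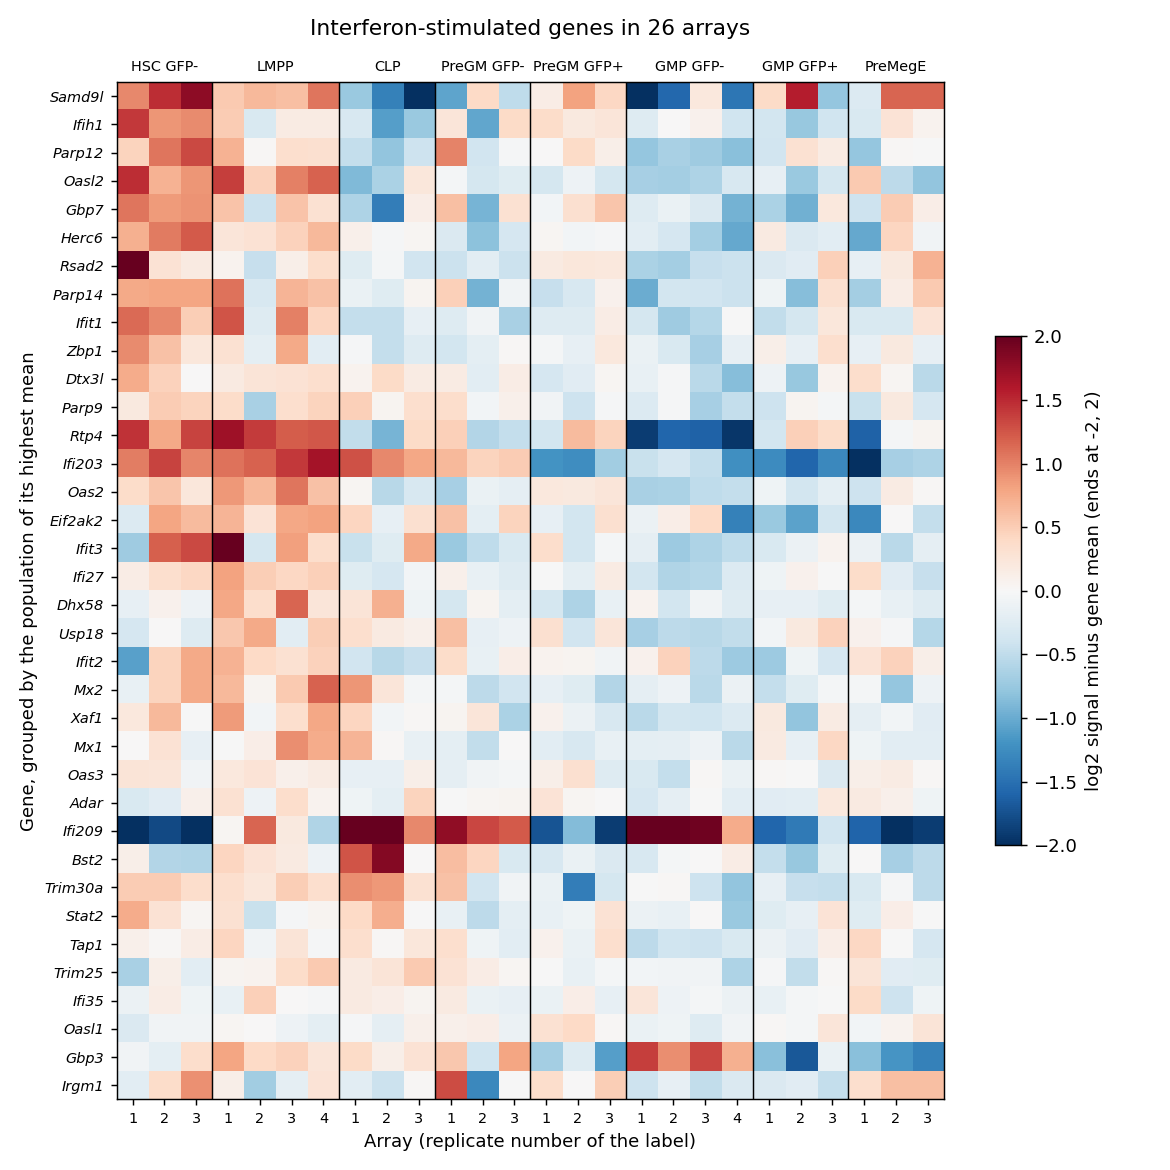
Each row is 1 of the 36 genes and each column 1 of the 26 arrays, grouped by population; colour is the log2 signal minus the gene's mean over all arrays. Rows are grouped by the population of the highest mean, so that the upper 26 rows are the genes highest in HSC GFP- or LMPP; Ifi209 is red in CLP, PreGM GFP- and GMP GFP-, Bst2 in CLP and Gbp3 in GMP GFP-.

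Against the mean of the other 7 groups, stem cells had 12 of the 36 genes higher (3.5% of all genes were) and 1 lower (2.76% of all genes; 6.25% in either direction). The median difference of the 36 was 0.42 on the log2 scale, with 28 of 36 positive, where the median of all genes was 0. By role, 3 of 9 RNA-binding and translation-blocking genes were higher (Ifit1, Oas2 and Oasl2), 1 of 3 genes of the Isg15 conjugation system (Herc6), 1 of 5 GTPases (Gbp7) and 3 of 5 nucleic acid sensors (Ifih1, Zbp1 and Ifi203). In the other roles 1 of 5 signalling and ADP-ribosylation genes was higher (Parp12), and 3 of 9 membrane, antigen and other genes (Rsad2, Rtp4 and Samd9l). The lower gene was the sensor Ifi209.

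Rtp4, an interferon-induced chaperone of membrane receptors, had a log2 signal of 9.98, 9.30 and 9.90 in the HSC GFP- arrays and 10.23, 9.94, 9.75 and 9.79 in LMPP. In CLP it was 8.05, 7.62 and 8.92, in PreGM GFP- 9.02, 7.95 and 8.07 and in PreGM GFP+ 8.18, 9.17 and 8.98. It was 8.17, 9.02 and 8.91 in GMP GFP+, 6.92, 8.50 and 8.60 in PreMegE and 6.64, 6.96, 6.93 and 6.59 in GMP GFP-. All arrays of stem cells and LMPP thus lay above all others, and those of GMP GFP- below all others except PreMegE array 1. The difference of HSC GFP- from the other groups was 1.33 (SE 0.29, adjusted p = 0.00545), or 2.52-fold.

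Oasl2, an OAS-like protein of the RNA response, was 9.27, 8.50 and 8.68 in HSC GFP- and 9.18, 8.26, 8.80 and 8.98 in LMPP. The CLP arrays read 6.91, 7.16 and 8.02, PreGM GFP- 7.76, 7.44 and 7.55 and PreGM GFP+ 7.45, 7.69 and 7.44. GMP GFP- had 7.14, 7.12, 7.18 and 7.47, GMP GFP+ 7.63, 7.05 and 7.44 and PreMegE 8.32, 7.27 and 7.01. Array 1 of PreMegE overlapped with LMPP, and all other arrays stayed below both groups. The stem cell difference was 1.19 (SE 0.23, adjusted p = 0.00146), or 2.28-fold.

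Ifih1, which encodes the double-stranded RNA sensor MDA5, was highest in stem cells. It was 9.31, 8.78 and 8.83 in HSC GFP- and 8.40, 7.59, 8.05 and 8.06 in LMPP. Its values were 7.57, 6.79 and 7.15 in CLP, 8.14, 6.86 and 8.28 in PreGM GFP- and 8.26, 8.08 and 8.14 in PreGM GFP+. They were 7.63, 7.90, 7.98 and 7.50 in GMP GFP-, 7.53, 7.13 and 7.50 in GMP GFP+ and 7.59, 8.17 and 7.97 in PreMegE. Each stem cell array was above every other array, and the difference was 1.23 (SE 0.21, adjusted p = 0.000555), or 2.35-fold.

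Herc6, the ligase that attaches Isg15 to proteins in the mouse, was 9.02, 9.36 and 9.55 in HSC GFP- and 8.56, 8.60, 8.78 and 8.96 in LMPP. It was 8.41, 8.29 and 8.35 in CLP, 8.03, 7.49 and 7.98 in PreGM GFP- and 8.36, 8.26 and 8.30 in PreGM GFP+. In GMP GFP- it was 8.10, 7.98, 7.64 and 7.29, in GMP GFP+ 8.49, 8.03 and 8.11 and in PreMegE 7.29, 8.75 and 8.24. The stem cell arrays stood above all others, followed by LMPP with 1 PreMegE array inside its range. Its difference was 1.13 (SE 0.19, adjusted p = 0.000556), or 2.18-fold.

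Parp12, a mono-ADP-ribosyltransferase, was 7.39, 8.01 and 8.26 in HSC GFP- and 7.64, 6.96, 7.28 and 7.26 in LMPP. It was 6.46, 6.15 and 6.52 in CLP, 7.93, 6.55 and 6.91 in PreGM GFP- and 6.94, 7.32 and 7.06 in PreGM GFP+. The values were 6.17, 6.29, 6.23 and 6.11 in GMP GFP-, 6.56, 7.24 and 7.10 in GMP GFP+ and 6.17, 6.96 and 6.93 in PreMegE. Array 1 of PreGM GFP- and array 1 of LMPP lay inside the stem cell range, and CLP and GMP GFP- lay below the median signal. The difference was 1.06 (SE 0.21, adjusted p = 0.00244).

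Samd9l, an antiviral and growth-restraining protein, varied widely between arrays of a group. Its signal was 9.32, 9.83 and 10.15 in HSC GFP-, 8.88, 9.01, 8.96 and 9.42 in LMPP and 7.61, 7.0 and 5.37 in CLP. PreGM GFP- had 7.30, 8.76 and 7.85, PreGM GFP+ 8.51, 9.16 and 8.77 and PreMegE 8.08, 9.52 and 9.52. In GMP GFP- it was 5.71, 6.79, 8.56 and 6.91 and in GMP GFP+ 8.74, 9.93 and 7.59. Stem cells overlapped with 1 GMP GFP+ array, 1 LMPP array and 2 PreMegE arrays, and the call was near the threshold at 1.58 (SE 0.47, adjusted p = 0.0476). 

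Gbp7, a guanylate-binding GTPase, was 9.39, 9.17 and 9.21 in HSC GFP- and 8.89, 7.88, 8.88 and 8.62 in LMPP. The values were 7.69, 6.93 and 8.45 in CLP, 8.92, 7.38 and 8.62 in PreGM GFP- and 8.26, 8.63 and 8.86 in PreGM GFP+. They were 8.05, 8.18, 8.03 and 7.36 in GMP GFP-, 7.68, 7.35 and 8.52 in GMP GFP+ and 7.90, 8.82 and 8.44 in PreMegE. The stem cells were above all other arrays, and the difference was 1.07 (SE 0.30, adjusted p = 0.0295). Gbp7, Gbp3, Ifi203 and Ifi209 have close relatives in their families, which their probe sets may also read.

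Rsad2, which encodes the antiviral enzyme viperin, had its call from 1 array. It was 8.25, 6.43 and 6.32 in HSC GFP- and 6.21, 5.69, 6.26 and 6.49 in LMPP. Values were 5.91, 6.11 and 5.77 in CLP, 5.71, 5.93 and 5.71 in PreGM GFP- and 6.33, 6.38 and 6.35 in PreGM GFP+. They were 5.51, 5.47, 5.69 and 5.71 in GMP GFP-, 5.85, 5.92 and 6.63 in GMP GFP+ and 5.98, 6.34 and 6.84 in PreMegE. Without HSC GFP- array 1, where it was highest, the call was lost (adjusted p = 0.506); over all arrays the difference was 0.95 (SE 0.25, adjusted p = 0.0235).

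Of the remaining called genes, Ifit1, which binds viral RNA by its foreign cap, was higher by 0.99 (SE 0.22, adjusted p = 0.00661) and Zbp1, a sensor that starts cell death, by 0.66 (SE 0.17, adjusted p = 0.0183). Oas2, an oligoadenylate synthetase, was higher by 0.44 (SE 0.13, adjusted p = 0.0365). Its mean in LMPP, 8.02, lay above the 7.61 of HSC GFP-, a difference that was not called. Ifi203, a sensor of the PYHIN family, was 10.82, 11.15 and 10.77 in HSC GFP-, 10.87, 10.97, 11.21 and 11.46 in LMPP and 11.06, 10.75 and 10.56 in CLP, against 8.53, 8.21 and 8.50 in GMP GFP+, and was higher in stem cells by 1.32 (SE 0.23, adjusted p = 0.000655). Ifi209, of the same family, had a difference of -2.10 (SE 0.37, adjusted p = 0.000785); it was 5.04, 4.28 and 4.74 in PreMegE, and its arrays of the other groups stand beside the comparisons that follow. Parp14 at 0.89 (adjusted p = 0.0508) and Ifit3 at 0.70 (adjusted p = 0.338) had the largest differences that were not called. The count of genes called in either direction was 7 without HSC GFP- array 1 and 8 without HSC GFP- array 2, and lay from 10 to 14 when any other array was left out. When each of the 26 arrays was left out in turn, the call was lost for Samd9l in 17 (without HSC GFP- array 3, adjusted p = 0.225), Rtp4 in 1 (without HSC GFP- array 1, adjusted p = 0.0595), Gbp7 in 3 (without HSC GFP- array 1, adjusted p = 0.147), Ifit1 in 2 (without HSC GFP- array 1, adjusted p = 0.0804), Rsad2 in 1 (without HSC GFP- array 1, adjusted p = 0.506), Zbp1 in 2 (without HSC GFP- array 1, adjusted p = 0.229) and Oas2 in 3 (without HSC GFP- array 2, adjusted p = 0.234) of these fits, where the parentheses hold the fit with the highest adjusted p by limma. The mean of the monocyte and macrophage markers was 6.39 to 6.40 in HSC GFP-, with 5 of 8 lower than in the other groups and 0 higher. Of other cell types, markers of mast cells and basophils were lower in 4 of 6 genes (1 higher), of eosinophils in 3 of 4, of late neutrophils in 3 of 6, of erythroid cells in 2 of 3 and of T and NK cells in 1 of 7, and 1 of 6 classical dendritic cell markers was higher. The part of these lists in the results was not tested.

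The other 24 genes are given by their lowest and highest group means. Among the RNA-binding and translation-blocking genes, Ifit1 ran from 6.02 in GMP GFP- to 7.29 in HSC GFP-, Ifit2 from 6.28 in CLP to 7.21 in LMPP and Ifit3 from 4.93 in PreGM GFP- to 6.18 in LMPP. Oas2 ran from 6.66 in GMP GFP- to 8.02 in LMPP, Oas3, which like Oas2 activates RNase L through its product, from 6.60 in GMP GFP- to 7.01 in LMPP, and Oasl1 from 7.21 in HSC GFP- to 7.59 in PreGM GFP+. Eif2ak2 ran from 7.55 in GMP GFP+ to 8.91 in LMPP and Adar from 7.77 in GMP GFP- to 8.11 in LMPP. The means of Adar, Oas3 and Oasl1 lay closest together.

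Of the Isg15 system, Usp18 ran from 6.65 in GMP GFP- to 7.61 in LMPP and Trim25, a ligase that activates RIG-I, from 8.74 in HSC GFP- to 9.30 in CLP. The GTPase genes Mx1 and Mx2, whose products block viral nucleoproteins, ran from 5.31 in GMP GFP- to 6.02 in LMPP and from 5.27 in PreGM GFP+ to 6.20 in LMPP, below the median signal throughout. Irgm1, a regulator of the immunity-related GTPases, ran from 7.56 in GMP GFP- to 8.41 in PreMegE. Among the sensors, Dhx58 ran from 6.17 in PreGM GFP+ to 7.17 in LMPP and Zbp1 from 6.58 in GMP GFP- to 7.48 in HSC GFP-. Of the signalling genes, Stat2 ran from 7.50 in PreGM GFP- to 8.16 in CLP, the ubiquitin ligase gene Dtx3l from 7.92 in GMP GFP- to 8.71 in HSC GFP-, its partner Parp9 from 7.18 in GMP GFP- to 7.93 in HSC GFP- and Parp14 from 7.34 in GMP GFP- to 8.67 in HSC GFP-.

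In the remaining role, Trim30a, a restriction factor of the tripartite motif family, ran from 9.66 in PreGM GFP+ to 10.99 in CLP, and Xaf1, which promotes cell death, from 6.85 in GMP GFP- to 7.72 in LMPP. Ifi27 ran from 8.71 in GMP GFP- to 9.71 in LMPP and Ifi35 from 7.54 in GMP GFP+ to 7.72 in CLP. Tap1, a subunit of the peptide transporter for antigen presentation, ran from 7.71 in GMP GFP- to 8.31 in CLP. Of these 24 genes the F test called Ifit1, Mx2, Oas2, Usp18, Ifi27, Dhx58 and Trim30a.

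**Figure D2:**
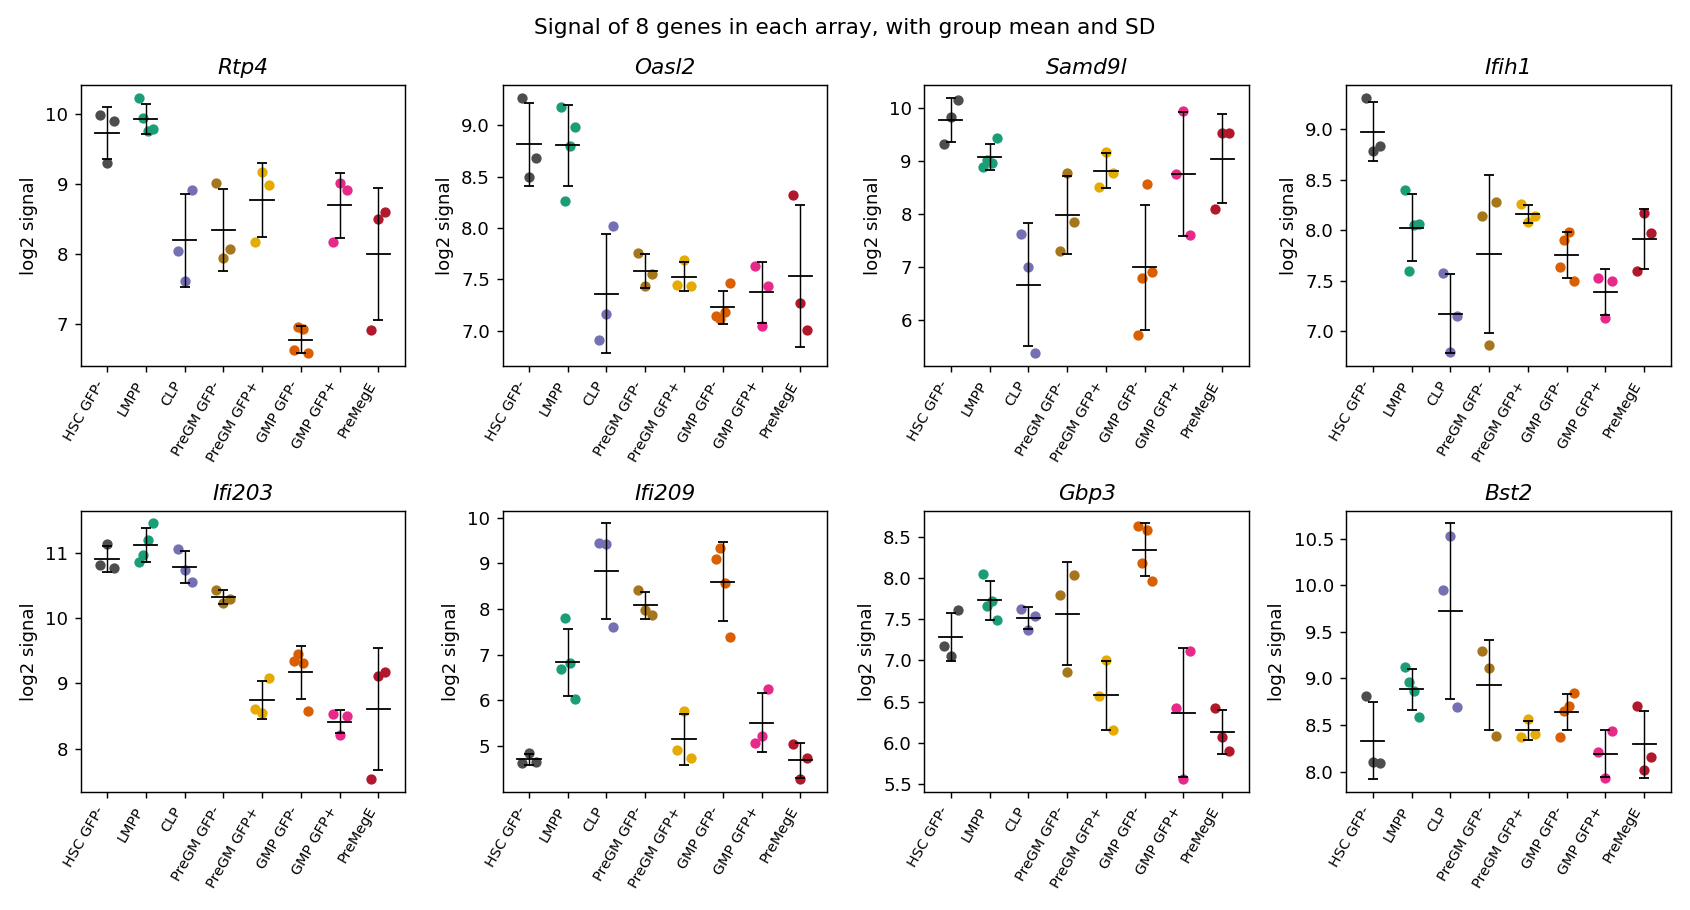
Log2 signal of 8 genes by population; points are arrays, the bar is the group mean and the whisker 1 SD. Rtp4, Oasl2 and Ifih1 are highest in HSC GFP- or LMPP. Ifi203 has its highest mean in LMPP, at 11.13, and its lowest in GMP GFP+, at 8.41. Ifi209 and Bst2 have their highest means in CLP and Gbp3 in GMP GFP-.

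LMPP and stem cells differed in 1 of the 36 genes. Ifi209 was higher in LMPP (1.03% of all genes were), with 6.68, 7.81, 6.83 and 6.04 against 4.64, 4.84 and 4.65 in HSC GFP-, where it lay below the median signal. The groups did not overlap, and the difference was 2.13 (SE 0.47, adjusted p = 0.012). Lower were 0 of the 36 (1.28% of all genes; 2.32% in either direction), and 9 had an unadjusted p under 0.05, against 11.7% of all genes. Differences of the genes that stood out in stem cells were 0.20 (95% confidence interval -0.55 to 0.96) for Rtp4, -0.01 (95% confidence interval -0.59 to 0.57) for Oasl2, -0.58 (95% confidence interval -1.09 to -0.08) for Herc6, -0.60 (95% confidence interval -1.15 to -0.05) for Parp12 and -0.70 (95% confidence interval -1.92 to 0.51) for Samd9l. Ifih1 differed by -0.94 (SE 0.26, adjusted p = 0.0651), the lowest value of the 36, and Dhx58, which encodes the MDA5 partner LGP2, by 0.69 (SE 0.19, adjusted p = 0.0595). These intervals hold differences of up to 1.92 log2 units, so the arrays do not show equal levels. A second gene was called without any of 6 arrays, namely PreGM GFP- 2 or 3, CLP 2 or 3, or LMPP 2 or 4.

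Some of these genes were lower in PreMegE than in stem cells, in a comparison that shares the HSC GFP- arrays with that of LMPP. Of the 36 genes 7 were lower (2.19% of all genes were) and 0 higher (0.988% of all genes; 3.18% in either direction), with a median difference of -0.52 against 0.03 for all genes and 30 of 36 negative. Ifi203 read 10.82, 11.15 and 10.77 in HSC GFP- and 7.53, 9.12 and 9.18 in PreMegE, a difference of -2.31 (SE 0.31, adjusted p = 3.85e-05); array 1 was the lowest of the PreMegE arrays, and the groups did not overlap. Rtp4 fell by 1.72 (SE 0.39, adjusted p = 0.0122). The differences were -1.28 (SE 0.30, adjusted p = 0.015) for Oasl2, -1.21 (SE 0.26, adjusted p = 0.00701) for Herc6 and -1.20 (SE 0.28, adjusted p = 0.0161) for Parp12. Ifih1 at -1.06 (SE 0.28, adjusted p = 0.0379) and the GTPase gene Gbp3 at -1.15 (SE 0.32, adjusted p = 0.0483), the latter ending below the median signal, were also lower. When each of the 26 arrays was left out in turn, the call was lost for Rtp4 in 3 (without PreMegE array 1, adjusted p = 0.108), Oasl2 in 3 (without PreMegE array 3, adjusted p = 0.111), Herc6 in 1 (without PreMegE array 1, adjusted p = 0.0586), Parp12 in 3 (without PreMegE array 1, adjusted p = 0.127), Gbp3 in 19 (without HSC GFP- array 3, adjusted p = 0.189) and Ifih1 in 5 (without PreMegE array 1, adjusted p = 0.189) of these fits, where the parentheses hold the fit with the highest adjusted p by limma. Ifit1 at -0.97 (adjusted p = 0.0858) and the kinase gene Eif2ak2, which encodes the RNA-activated translation inhibitor PKR, at -0.96 (adjusted p = 0.231) had the largest differences that were not called. Samd9l differed by -0.72 (adjusted p = 0.726). Only 3 genes were called without PreMegE array 1, HSC GFP- array 1 or HSC GFP- array 3 and 4 without PreMegE array 3 or HSC GFP- array 2, while with the spread taken from these 6 arrays alone 0 were. Late neutrophil markers were higher in PreMegE in 5 of 6 genes, reaching 10.13 in array 1. That array was the lowest of the 3 for Rtp4, Ifi203, Herc6, Parp12 and Ifih1 and the highest for Oasl2 and Gbp3. Erythroid markers were higher in 2 of 3 genes, T and NK cell markers in 1 of 7, and classical dendritic cell markers lower in 2 of 6; the part of these lists in the result was not tested.

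From LMPP to CLP, 5 of the 36 genes were lower (0.747% of all genes) and 1 higher (0.828% of all genes; 1.57% in either direction). The median difference was -0.30 against 0.04 for all genes. Samd9l fell by 2.40 (SE 0.59, adjusted p = 0.0355) and its groups did not overlap. Rtp4 fell by 1.73 (SE 0.36, adjusted p = 0.011), and Oasl2 fell by 1.44 (SE 0.28, adjusted p = 0.00511), both also without overlap. Oas2 read 8.10, 7.88, 8.30 and 7.81 in LMPP and 7.27, 6.68 and 6.91 in CLP, without overlap, and its difference was -1.07 (SE 0.16, adjusted p = 0.000228). Ifi27, a small membrane protein of interferon-treated cells, was 9.96, 9.66, 9.58 and 9.63 in LMPP and 8.92, 8.83 and 9.11 in CLP, also without overlap, a difference of -0.76 (SE 0.16, adjusted p = 0.0083). The nucleic acid sensor Ifi209 moved the other way by 1.99 (SE 0.47, adjusted p = 0.0272), with CLP arrays at 9.44, 9.42 and 7.61, of which the last lay inside the range of LMPP. Ifit1 at -0.99 (adjusted p = 0.0843) and Ifit2, another RNA-binding protein of its family, at -0.93 (adjusted p = 0.177) had the largest differences that were not called. When each of the 26 arrays was left out in turn, the call was lost for Samd9l in 6 (without CLP array 3, adjusted p = 0.213), Ifi209 in 5 (without CLP array 2, adjusted p = 0.202), Rtp4 in 2 (without CLP array 2, adjusted p = 0.115), Oasl2 in 1 (without CLP array 1, adjusted p = 0.0597) and Ifi27 in 1 (without CLP array 2, adjusted p = 0.0707) of these fits, where the parentheses hold the fit with the highest adjusted p by limma.

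Bst2, which encodes the virion-retaining membrane protein tetherin, a surface marker of mouse plasmacytoid dendritic cells as well, had its highest mean in CLP. It was 9.95, 10.53 and 8.69 there, against 9.12, 8.96, 8.87 and 8.59 in LMPP and 8.81, 8.10 and 8.09 in HSC GFP-. It read 9.30, 9.11 and 8.38 in PreGM GFP-, 8.37, 8.56 and 8.40 in PreGM GFP+ and 8.70, 8.02 and 8.16 in PreMegE. In GMP GFP- it was 8.37, 8.65, 8.70 and 8.84 and in GMP GFP+ 8.21, 7.93 and 8.44. CLP arrays 1 and 2 exceeded all others, array 3 did not, and the difference from LMPP was 0.84 (adjusted p = 0.246). In CLP arrays 1, 2 and 3 the plasmacytoid dendritic cell markers had a mean of 8.62, 8.40 and 7.99 (3 of 4 measured were higher than in LMPP). The monocyte and macrophage markers had 8.97, 8.88 and 7.47 (4 of 8 higher, with 6.74 to 7.08 in LMPP). Ifi209, at 9.44, 9.42 and 7.61, had the same order over these arrays, and Bst2 did not. Classical dendritic cell markers were higher in 2 of 6 genes and mature B cell markers in 2 of 4. Their part in these results was not tested. Without CLP array 1 the count of called genes was 3 and without array 2 it was 2; Ifi209 was not among them, at 1.68 and 1.69. With arrays weighted by precision it was 10, for which the share of all genes is not given here.

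PreGM GFP- also had 5 of the 36 genes lower than LMPP (0.476% of all genes) and 0 higher (0.396% of all genes, 0.873% in either direction). The median difference was -0.33 against 0.01 for all genes, with 31 of 36 negative. The comparison shares its LMPP arrays with that of CLP, so the results are not independent. Oas2 read 6.57, 7.10 and 7.05 in PreGM GFP-, below all LMPP arrays, and differed by -1.12 (SE 0.16, adjusted p = 0.000322). Rtp4 differed by -1.58 (SE 0.36, adjusted p = 0.0359), Oasl2 by -1.23 (SE 0.28, adjusted p = 0.0341), Ifi27 by -0.65 (SE 0.16, adjusted p = 0.046) and Dhx58 by -0.80 (SE 0.19, adjusted p = 0.0456). Ifi209, at 1.25 (adjusted p = 0.321), and Ifit3, at -1.25 (adjusted p = 0.287), had the largest differences that were not called. Of these calls Oas2 was the only one that held in each leave-one-out fit. When each of the 26 arrays was left out in turn, the call was lost for Rtp4 in 6 (without PreGM GFP- array 2, adjusted p = 0.179), Oasl2 in 6 (without PreGM GFP- array 2, adjusted p = 0.131), Dhx58 in 18 (without PreGM GFP- array 1, adjusted p = 0.182) and Ifi27 in 19 (without PreGM GFP- array 3, adjusted p = 0.181) of these fits, where the parentheses hold the fit with the highest adjusted p by limma. The count was 3 or fewer when 1 of 16 arrays was left out, which were all arrays of PreGM GFP- and GMP GFP+, GMP GFP- 1, 2 and 3, LMPP 1, 3 and 4, HSC GFP- 2 and 3, PreGM GFP+ 1 and CLP 1. It was 1 with arrays centred on their medians or weighted by precision, and 2 with the compared groups alone. Monocyte and macrophage markers were higher in PreGM GFP- in 3 of 8 genes, mast cell and basophil markers in 2 of 6 and late neutrophil markers in 1 of 6, and 1 of 6 classical dendritic cell markers was lower; their part was not tested.

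**Figure D3:**
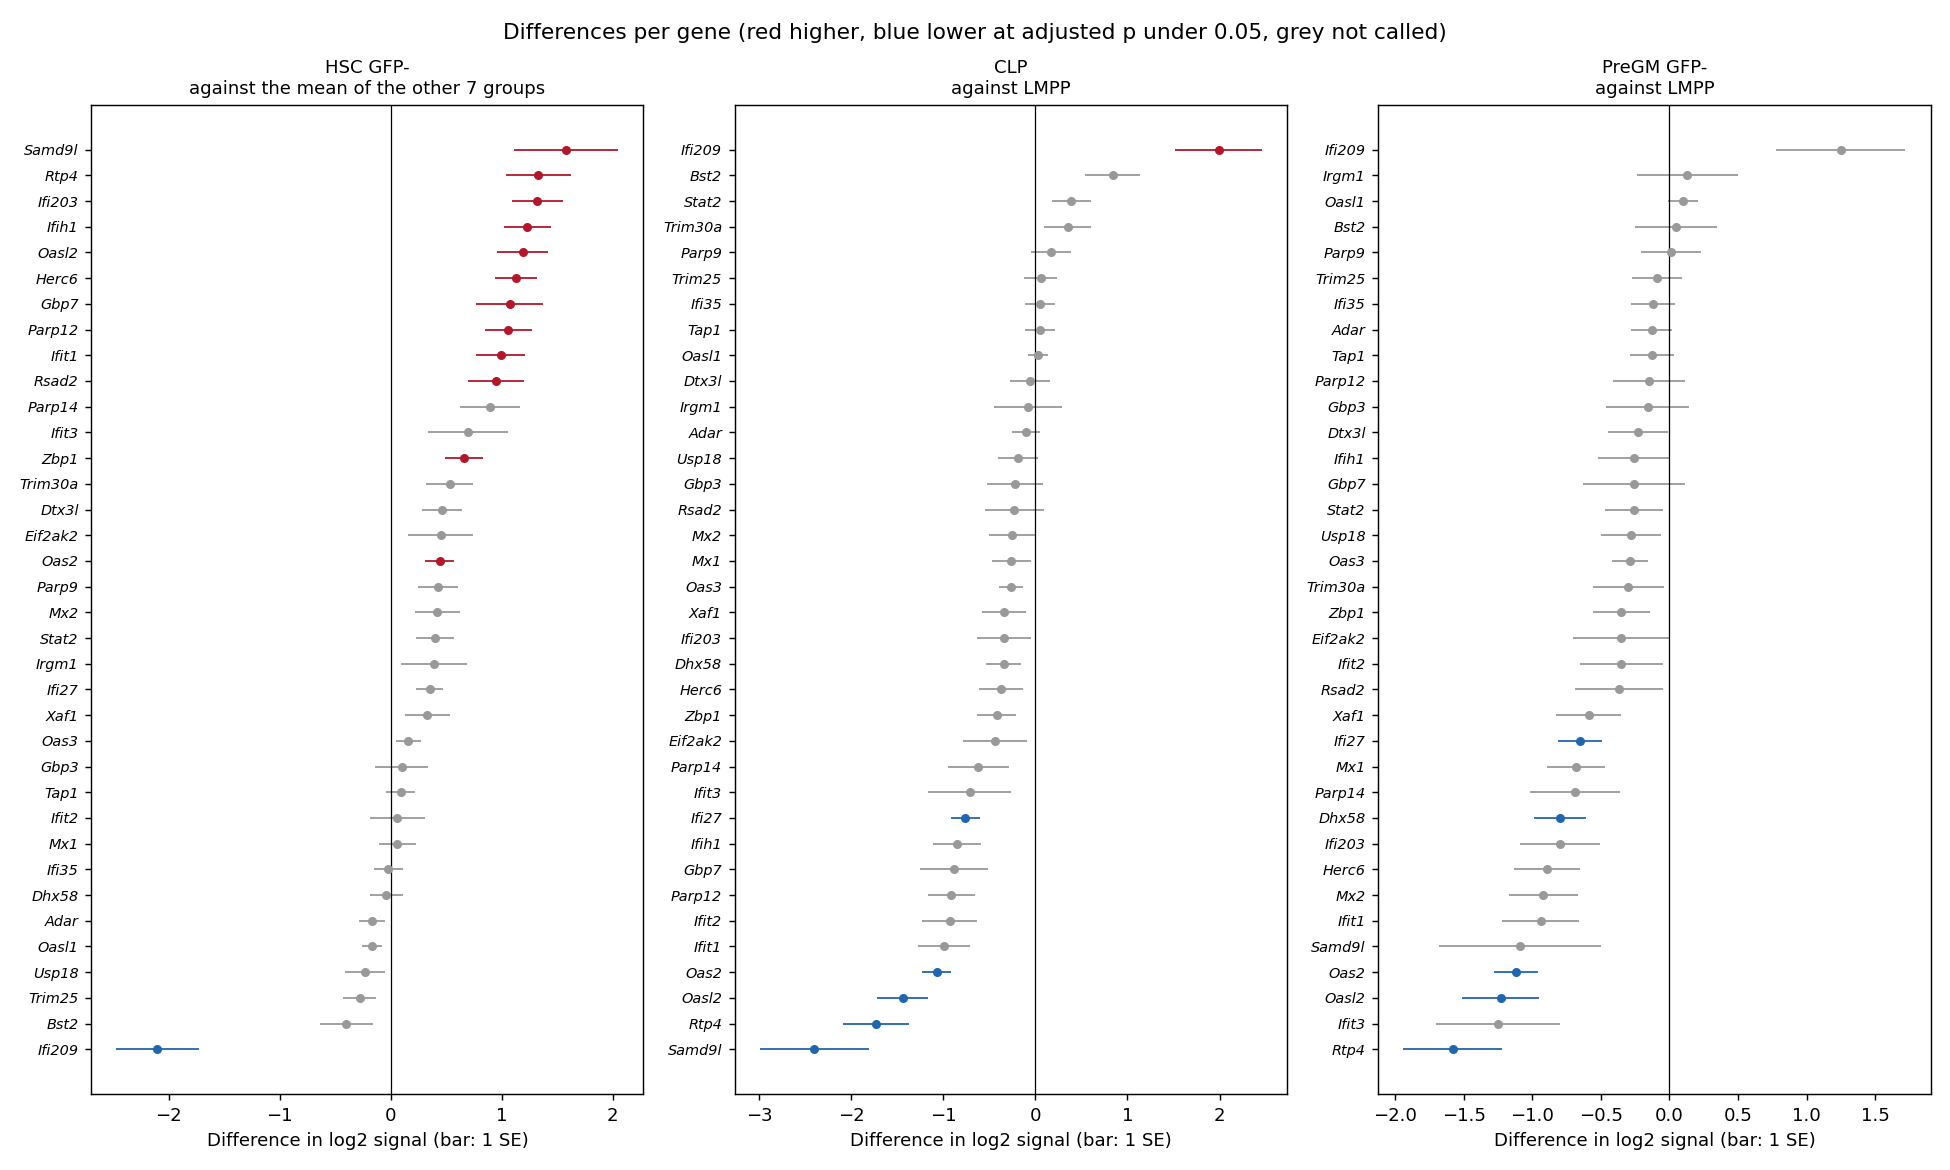
Differences in log2 signal of the 36 genes, sorted within each panel; points are estimates, bars 1 SE, red and blue the called genes. In HSC GFP- against the mean of the other groups 12 genes are red and Ifi209 is blue; against LMPP, 5 genes are blue and Ifi209 is red in CLP, and 5 are blue in PreGM GFP-.

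GMP GFP- had lower levels than PreGM GFP- in 2 of the 36 genes (0.471% of all genes were lower), and 0 were higher (0.918% of all genes; 1.39% in either direction). Rtp4 read 9.02, 7.95 and 8.07 in PreGM GFP- and 6.64, 6.96, 6.93 and 6.59 in GMP GFP-, with no overlap and a difference of -1.56 (SE 0.36, adjusted p = 0.0298). Ifi203 read 10.44, 10.23 and 10.30 in PreGM GFP- and 9.34, 9.45, 9.32 and 8.57 in GMP GFP-, also with no overlap, a difference of -1.16 (SE 0.29, adjusted p = 0.044). The median difference was -0.28 against -0.01 for all genes, with 29 of 36 negative. Samd9l at -0.98 (adjusted p = 0.773) and Parp12 at -0.93 (adjusted p = 0.104) had the largest differences that were not called. When each of the 26 arrays was left out in turn, the call was lost for Rtp4 in 5 (without PreGM GFP- array 1, adjusted p = 0.157) and Ifi203 in 18 (without GMP GFP- array 4, adjusted p = 0.155) of these fits, where the parentheses hold the fit with the highest adjusted p by limma. The sensor Ifi209 was 8.42, 7.97 and 7.87 in PreGM GFP- and 9.10, 9.34, 8.58 and 7.39 in GMP GFP-, both above the median signal, and they overlapped. Both calls were lost without any 1 array of GMP GFP- or without PreGM GFP- array 1, and 1 was left without any of 12 other arrays, PreGM GFP- 3, GMP GFP+ 1 to 3, PreGM GFP+ 1, CLP 2, LMPP 1 to 3 and HSC GFP- 1 to 3. Late neutrophil markers were higher in GMP GFP- in 4 of 6 genes, with 9.27 to 11.30 against 7.22 to 8.07 in PreGM GFP-, and classical dendritic cell markers were lower in 3 of 6; their part was not tested.

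No gene of the set passed the test when GMP GFP+ or PreMegE was compared with PreGM GFP+. Between GMP GFP+ and PreGM GFP+, limma called 0 of 36 (0.792% of all genes were higher, 0.226% lower and 1.02% either), and 2 had an unadjusted p under 0.05, both lower, against 7.45% of all genes. Differences ranged from -0.77, for Ifih1, to 0.37. Between PreMegE and PreGM GFP+ it called 0 of 36 (0.015% of all genes were higher, 0.0502% lower and 0.0652% either), none had an unadjusted p under 0.05 against 3.83% of all genes, and differences ranged from -0.77, for Rtp4, to 0.34. Rtp4 read 8.18, 9.17 and 8.98 in PreGM GFP+, 8.17, 9.02 and 8.91 in GMP GFP+ and 6.92, 8.50 and 8.60 in PreMegE, with overlap throughout. Both counts stayed at 0 in 26 leave-one-out fits and 7 other alternatives. Of these, the mean of all probe sets could not change the signals, since each of the 36 genes had 1 probe set. Arrays outside the compared groups enter these fits only through the shared spread. A p that misses the threshold does not show equal levels. From PreGM GFP+ to GMP GFP+ mast cell and basophil markers were higher in 4 of 6 genes, eosinophil markers in 3 of 4 and monocyte and macrophage markers in 1 of 8, and erythroid markers lower in 1 of 3; in PreMegE mast cell and basophil markers were lower in 2 of 6.

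The reporter divides PreGM cells by Gata1 activity, and 2 of the 36 genes followed it, both lower in PreGM GFP+ (1.14% of all genes were), with 0 higher (0.908% of all genes; 2.05% in either direction). Both are PYHIN sensors, of which Ifi203 was not called in GMP, with means of 9.17 in GMP GFP- and 8.41 in GMP GFP+. Ifi209 read 8.42, 7.97 and 7.87 in PreGM GFP- and 4.91, 5.78 and 4.75 in PreGM GFP+, where it lay below the median signal, and the difference was -2.94 (SE 0.50, adjusted p = 0.000985). Ifi203 was 10.44, 10.23 and 10.30 without and 8.60, 8.55 and 9.09 with the reporter, a difference of -1.58 (SE 0.31, adjusted p = 0.00388) or 2.98-fold lower. Neither gene's groups overlapped, and both calls held in each leave-one-out fit. Gbp3 at -0.99 (adjusted p = 0.141) and Samd9l at 0.84 (adjusted p = 0.747) had the largest differences that were not called. The median of the 36 was 0.00 against 0.04 for all genes. Monocyte and macrophage markers fell with the reporter in 5 of 8 genes and rose in 0, with a mean of 8.46 to 8.61 in PreGM GFP- and 6.26 to 6.36 in PreGM GFP+, and classical dendritic cell markers fell in 3 of 6. Erythroid markers rose in 3 of 3 genes, with 6.22 to 7.0 in PreGM GFP- and 9.24 to 9.77 in PreGM GFP+, mast cell and basophil markers in 3 of 6, with 6.87 to 7.29 in PreGM GFP- and 8.22 to 8.89 in PreGM GFP+, and eosinophil markers in 1 of 4. The part of these lists was not tested.

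In GMP the reporter went with changes in both directions: 2 of the 36 were higher in GMP GFP+ (3.22% of all genes) and 2 lower (4.05% of all genes). As a share, 4 of 36 lies near the 7.27% of all genes called in either direction. Rtp4 was higher by 1.92 (SE 0.36, adjusted p = 0.0017), or 3.78-fold, and all GMP GFP- arrays, from 6.59 to 6.96, lay under the GMP GFP+ arrays, from 8.17 to 9.02. Usp18, which removes Isg15 from proteins and damps receptor signalling, was 6.55, 6.69, 6.65 and 6.71 in GMP GFP- and 7.15, 7.41 and 7.67 in GMP GFP+, a difference of 0.76 (SE 0.22, adjusted p = 0.0374). Its call was lost with arrays centred on their medians. When each of the 26 arrays was left out in turn, the call was lost for Usp18 in 6 (without GMP GFP+ array 3, adjusted p = 0.192) of these fits, where the parentheses hold the fit with the highest adjusted p by limma.

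Ifi209 was 9.10, 9.34, 8.58 and 7.39 in GMP GFP- and 5.06, 5.23 and 6.26 in GMP GFP+, and differed by -3.08 (SE 0.47, adjusted p = 0.000136). Gbp3, a guanylate-binding GTPase, was 8.63, 8.18, 8.59 and 7.97 in GMP GFP- and 6.42, 5.56 and 7.12 in GMP GFP+, a difference of -1.97 (SE 0.30, adjusted p = 0.000129), with the reporter-positive mean below the median signal. Elsewhere it read 7.18, 7.06 and 7.61 in HSC GFP-, 8.05, 7.66, 7.72 and 7.49 in LMPP and 7.63, 7.37 and 7.54 in CLP. It was 7.80, 6.86 and 8.04 in PreGM GFP-, 6.57, 7.0 and 6.16 in PreGM GFP+ and 6.42, 6.07 and 5.90 in PreMegE. The means of PreGM GFP+, GMP GFP+ and PreMegE thus lay below those of the other 5 groups, and GMP GFP- had the highest. Samd9l, at 1.76 (adjusted p = 0.0722), was the largest difference that was not called, its GMP GFP- arrays running from 5.71 to 8.56. Monocyte and macrophage markers fell in 5 of 8 genes and rose in 1, with 8.10 to 8.85 in GMP GFP- and 6.72 to 7.03 in GMP GFP+. Late neutrophil markers fell in 4 of 6, with 9.27 to 11.30 and 7.60 to 9.04. Mast cell and basophil markers rose in 5 of 6, with 6.86 to 7.29 in GMP GFP- and 10.77 to 11.35 in GMP GFP+. Eosinophil markers rose in 4 of 4, with 6.25 to 6.56 and 9.71 to 10.22, and erythroid markers in 2 of 3, with 6.16 to 6.83 and 8.27 to 8.77. The part of these lists was not tested. With arrays centred on their medians 1 gene was higher and 2 lower, and over all genes 432 were higher and 1054 lower in place of 642 and 807.

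The reporter effects of GMP and PreGM were not shown to differ for any of the 36 genes by limma's interaction test (0.517% of all genes were higher in GMP, 0.186% lower and 0.702% either), and 3 had an unadjusted p under 0.05 against 7.54% of all genes. Ifi209 differed by -2.94 in PreGM and -3.08 in GMP, and the difference between these was -0.15 (95% confidence interval -1.56 to 1.27). For Rtp4 the effects were 0.43 and 1.92, which differ by 1.49 (SE 0.53, adjusted p = 0.401), the largest value of the 36. The count was 0 in 26 leave-one-out fits and 7 other alternatives, of which the mean of all probe sets could not change the signals of these genes.

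**Figure D4:**
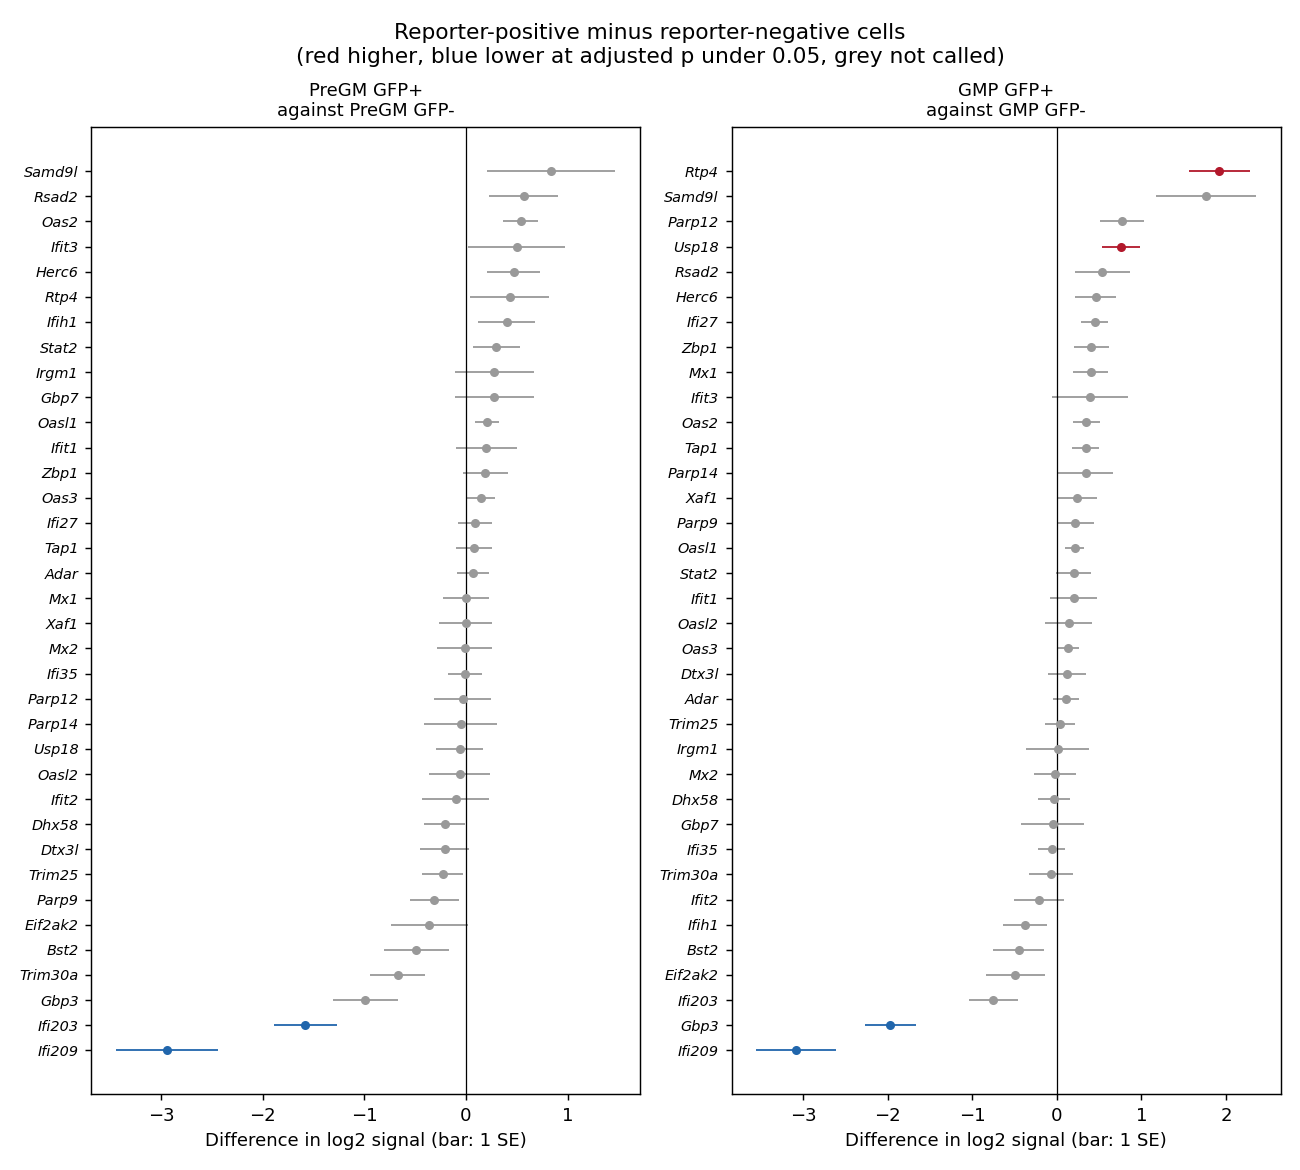
Reporter-positive minus reporter-negative cells in PreGM (left) and GMP (right); points are differences in log2 signal of the 36 genes, bars 1 SE, red higher, blue lower and grey not called. Ifi209 is lowest in both panels at -2.94 and -3.08, and Rtp4 leads the right panel at 1.92.

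Genes that make or receive the interferon signal did not share one pattern. Of 32 measured pathway genes that are not among the 36, 13 differed over the 8 groups by the F test, where 15.2% of all genes did. In stem cells against the other groups 3 were higher and 3 lower (3.5% and 2.76% of all genes), the former being the transcription factor gene Irf2 by 1.21, Ddx58, the RNA sensor RIG-I, by 0.91 and the receptor kinase gene Jak1 by 0.67. Lower were Irf8 at -0.93, the interferon gamma receptor gene Ifngr1 at -0.84 and the type I receptor gene Ifnar2 at -0.57, and the median of the 32 was 0. Ifnar2 was 9.33 ± 0.27 (SD, n = 3) in HSC GFP- and 10.47 ± 0.12 (SD, n = 4) in LMPP, a difference of 1.14 (SE 0.19, adjusted p = 0.000926). The Toll-like receptor gene Tlr7 was also higher in LMPP, by 1.55, which made 2 of 32 (1.03% of all genes). The interferon genes Ifnb1, Ifng, Ifna4, Ifne and Ifnk had a mean below the median signal in all 8 groups. This does not cover Ifna2 and Ifnl2, which were measured too and were called in none of the comparisons.

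Against LMPP, Ddx58 differed by -1.30 (SE 0.27, adjusted p = 0.00934) in CLP and by -1.27 (SE 0.27, adjusted p = 0.0203) in PreGM GFP-. Irf7, which amplifies interferon production, at -0.73 and Tlr7 at -1.38 were also lower in PreGM GFP-, in all 3 of 32 (0.476% of all genes). In CLP 1 pathway gene was lower than in LMPP (0.747% of all genes) and 2 were higher (0.828%), Irf8 by 2.82 and Tlr9 by 0.57. In PreMegE against stem cells Ifngr1 was higher by 1.34, and Sting1, the adaptor of DNA sensing, at -1.35 and Irf2 at -1.43 were lower, 1 and 2 of 32 against 0.988% and 2.19% of all genes. Ifngr1 was higher in GMP GFP- than in PreGM GFP- by 1.24, as 1 of 32 (0.918% of all genes).

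With the reporter, 4 of 32 pathway genes were lower and 1 higher in PreGM (1.14% and 0.908% of all genes) and 3 lower and 2 higher in GMP (4.05% and 3.22% of all genes). Ifnar2 was called in both gates, at -0.97 (SE 0.20, adjusted p = 0.00812) in PreGM and -0.79 (SE 0.19, adjusted p = 0.0118) in GMP. Irf8, a monocyte and dendritic cell factor, differed by -1.95 and -2.05. In PreGM Sting1 at -1.70 and Ifngr2 at -1.25 were lower and Ifngr1 at 1.29 higher. In GMP the adaptor gene Myd88 at -1.91 was lower, and the kinase gene Jak2 at 1.30 and Irf7 at 0.64 were higher. Between GMP GFP+ and PreGM GFP+, and between PreMegE and PreGM GFP+, limma called 0 of the 32.

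Further interferon-induced genes, 39 measured, held 12 genes that were higher in stem cells than in the other groups (3.5% of all genes) and 0 that were lower (2.76%), with a median difference of 0.31. Iigp1, a GTPase of interferon gamma responses, was 8.53 ± 0.22 (SD, n = 3) in HSC GFP-, 7.32 ± 0.51 (SD, n = 4) in LMPP and between 5.33 and 6.06 on average in the other groups. Its difference was 2.56 (SE 0.17, adjusted p = 1.19e-09), followed by Slfn5 at 1.37, the helicase gene Ddx60 at 1.28 and Gbp9 at 1.26. LMPP had 5 of the 39 lower than stem cells (1.28% of all genes) and 0 higher (1.03%), led by Gbp9 at -1.29, Slfn2 at -1.22 and Iigp1 at -1.21. PreMegE had 8 lower (2.19% of all genes) and 0 higher (0.988%), led by Iigp1 at -2.71, Slfn5 at -1.70 and Gbp4 at -1.54.

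From LMPP to CLP 5 of the 39 were lower (0.747% of all genes) and 2 higher (0.828%). Ifitm1 at -2.17 and Ifitm3 at -1.22, which encode membrane proteins that block viral entry, Iigp1 at -1.26 and Ddx60 at -1.24 led those that were lower. The guanylate-binding GTPase genes Gbp4, by 1.72, and Gbp9, by 1.70, were higher. In PreGM GFP- against LMPP 3 were lower (0.476% of all genes) and 0 higher, Iigp1 at -1.67, Ddx60 at -1.35 and Epsti1 at -1.16. In GMP GFP- against PreGM GFP- 2 were lower (0.471% of all genes) and 0 higher, Ifitm1 at -1.07 and Uba7, the enzyme that activates Isg15, at -0.47. In the comparisons of GMP GFP+ and PreMegE with PreGM GFP+ 1 was lower (0.226% and 0.0502% of all genes) and 0 higher, Ifitm3 from PreGM GFP+ to GMP GFP+ at -0.66 and Ly6e in PreMegE against PreGM GFP+ at -0.84.

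With the reporter 2 of the 39 were higher and 1 lower in PreGM (0.908% and 1.14% of all genes), and 4 higher and 3 lower in GMP (3.22% and 4.05%). Ifitm1 was higher by 1.02 (SE 0.19, adjusted p = 0.00268) in PreGM and by 2.25 (SE 0.18, adjusted p = 1.06e-08) in GMP, and it was the only one of the 39 for which the effects differed, by 1.23 (SE 0.26, adjusted p = 0.0226). The exonuclease gene Isg20 was higher by 1.29 and 0.85, and the immunoproteasome gene Psmb8 lower at -0.57 and -0.43. In GMP Trim34a at 1.22 and Uba7 at 0.62 were higher too, and Slfn2 at -0.94 and Ifitm3 at -0.52 lower.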

How the data were processed

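The deposited values are log2 signals of Mouse Gene 1.1 ST arrays, 1 per probe set, hybridised with biotin-labelled cRNA per the labels. The submitters' processing notes name RMA and oligo; versions, steps and the base of the logarithm are not given in the sources used here, and base 2 was taken from the range of the values. Of 35556 probe sets, 21789 named 1 gene in the annotation of the related 1.0 ST array, 1621 several and 12146 none; only the first were used. In limma 3.58.1 under R 4.3.3 all 26 arrays were fitted with 1 coefficient per group, and contrasts and an F test over the groups were adjusted over 19938 genes by Benjamini-Hochberg, calling an adjusted p under 0.05. The fit was tested on simulated data. Differences are the first-named group minus the other.

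HSC EGFP+ cells, which the extraction protocol names, were not analysed here. The genes and lists were chosen with earlier results of these data known. Arrays are given for the 12 genes with the widest range of group means, and up to 8 called genes are named each way (all 12 in stem cells, where Ifit1, Rsad2, Zbp1 and Oas2 go past that rule), or 4 from the lists of other genes; these additions, Oas2, Ifi27 and Usp18 by array and the promoters shown were chosen after their values were seen. The alternatives were leaving out each array, the replicate block, the mean of all probe sets, centred arrays, a filter on low signal, the compared groups alone and array weights; a Y-linked covariate was added after seeing the data. Whether the replicate numbers pair the arrays is not known, and the main fit treats them as unpaired. With group means removed, 18 of 85 pairs from different groups with the same number correlated over 0.1. Of 210 pairs with different numbers 26 did, and the median correlations were 0.03 and -0.01. The Y-linked mean was lowest in array 2 of LMPP, CLP and both reporter states of PreGM and GMP, and in array 1 of HSC GFP- and PreMegE.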

Additional observations from a re-analysis of the deposited data

Results flagged for a closer look

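In groups of 4 arrays, 72 checks for a single array far from the rest marked 5, and chance marks about 1 in 20. In LMPP, array 2 had a log2 signal of 6.89 for Parp9, a partner of the ubiquitin ligase Dtx3l, where the others lay between 7.88 and 7.98. In GMP GFP-, array 4 was apart for Trim25, at 8.37 against 8.91 to 8.93, for Ifi203, at 8.57 against 9.32 to 9.45, and for Oasl2, at 7.47 against 7.12 to 7.18. Array 1 of GMP GFP- had 6.90 for Parp14, against 7.45 to 7.52.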

How the results depend on the processing

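Counts of called genes are over the 36 and are given without the share of all genes called in the same fit. Leave-one-out fits gave 15 to 21 for the F test, 7 to 14 for HSC GFP- against the other groups, 1 to 2 for LMPP against HSC GFP-, 3 to 7 for PreMegE against HSC GFP-, 2 to 7 for CLP against LMPP, 1 to 7 for PreGM GFP- against LMPP, 0 to 2 for GMP GFP- against PreGM GFP-, 2 to 3 for the reporter in PreGM and 3 to 6 in GMP. With arrays weighted by precision the counts were 27 for the F test, 3 for LMPP against HSC GFP-, 10 for CLP against LMPP, 1 for PreGM GFP- against LMPP, 0 for GMP GFP- against PreGM GFP- and 8 for the reporter in GMP; that estimate of weights stopped before full convergence. The replicate block gave 2 for LMPP against HSC GFP-, 2 for PreGM GFP- against LMPP and 0 for GMP GFP- against PreGM GFP-, and in the other comparisons its counts were within 1.5 times the main ones; 9 of 26 arrays correlated best with their own number. Centring arrays gave 2, 1 and 1 for these comparisons in that order. With the compared groups alone the count was 0 for PreMegE against HSC GFP- and 2 for PreGM GFP- against LMPP. The Y-linked covariate, chosen after seeing the data, gave 2 for LMPP against HSC GFP-. No called difference changed its sign. The cause of these changes was not tested. Signals near or below the median, among them Ifit3, Mx1 and Mx2 in all groups, limit what these arrays can show.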
